A study of Mus musculus with 6 samples.

Results

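The transcripts of the mitochondrial genome were followed in RNA recovered from mouse muscle stem cells by immunoprecipitation of CPEB4. The members were all rows of the count table whose symbol starts with mt-. There were 37 such rows among 55376, made up of 13 mRNAs, 2 rRNAs and 22 tRNAs. All 6 libraries came from muscle stem cells of C57BL/6 mice aged 3 months, isolated by flow sorting and sequenced from SMART-seq2 libraries, a full-length cDNA method for little RNA. In 2 libraries the RNA was pulled down with an antibody against CPEB4 (CPEB4 RIP, called the CPEB4 pulldown here), in 2 with IgG as a control antibody (IgG RIP, the IgG pulldown), and 2 were made from input RNA. No genotype or treatment other than these antibodies is labelled, and the CPEB4 pulldown was set against the IgG pulldown to ask which RNAs the CPEB4 antibody recovers.

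The mitochondrial genome is a small circle inside the organelle that is transcribed from both strands as long precursors. The tRNAs punctuate these precursors, and cleavage at the tRNAs releases the mRNAs and rRNAs. The mRNAs encode core subunits of respiratory complexes I, III and IV and of the ATP synthase (complex V), and they are translated by ribosomes of the organelle. Muscle stem cells hold few mitochondria when quiescent and more after activation. CPEB4 is an RNA-binding protein known for binding a U-rich element of cytoplasmic messages.

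Assigned counts were 9018323 to 20843042 per library. The IgG pulldown libraries stood apart from each other: their Pearson r of log CPM across 18054 tested genes was 0.873, against 0.981 within the CPEB4 pulldown and 0.975 within input. Several results changed when 1 of these libraries was left out, and values without it are given for some of them. Over the tested mitochondrial genes alone r was 0.989 within the IgG pulldown, and these correlations are across genes, which are not independent replicates. The sorted cell type was checked by its markers: all 12 muscle stem cell markers were tested, and Pax7, Myf5 and Myod1, transcription factors of the muscle lineage, were present in each group. The CPEB4 libraries are described as biological replicates, but nothing says that separate animals gave the other pairs, so the p-values rest on variation among these libraries alone, and part of it could be technical.

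RNA of the mitochondrial genome was more abundant in the CPEB4 pulldown than in either background. The members held 4.84% and 4.50% of all assigned counts in the CPEB4 pulldown libraries. In the IgG pulldown libraries they held 0.977% and 1.28%, and in the input libraries 1.28% and 1.54%. The CPEB4 pulldown values lay above those of the other 4 libraries, while the IgG pulldown and input lay close together. The mean share was 4.15 times that of the IgG pulldown and 3.31 times that of input. With 2 libraries a group the smallest p of an exact permutation test (two-sided) is 0.333, so the shares were not tested. In bulk libraries, fewer cells of a type and less RNA per cell cannot be told apart, and shares are relative to all other RNA recovered.

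The classes did not differ equally between the groups. The rRNAs held 0.466% ± 0.068 of the counts in the CPEB4 pulldown, 0.0698% ± 0.024 in the IgG pulldown and 0.103% ± 0.013 in input (SD, n = 2 each). The ratio of the CPEB4 pulldown to the IgG pulldown was 6.67 for rRNAs, 3.98 for mRNAs and 2.65 for tRNAs. The tRNAs had few counts in all groups. Their shares were 0.00601% ± 0.00029 in the CPEB4 pulldown, 0.00227% ± 0.00061 in the IgG pulldown and 0.00216% ± 0.00063 in input (SD, n = 2 each). How well the library method captures each class was not measured, so these shares are not amounts of RNA.

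**Figure D1:**
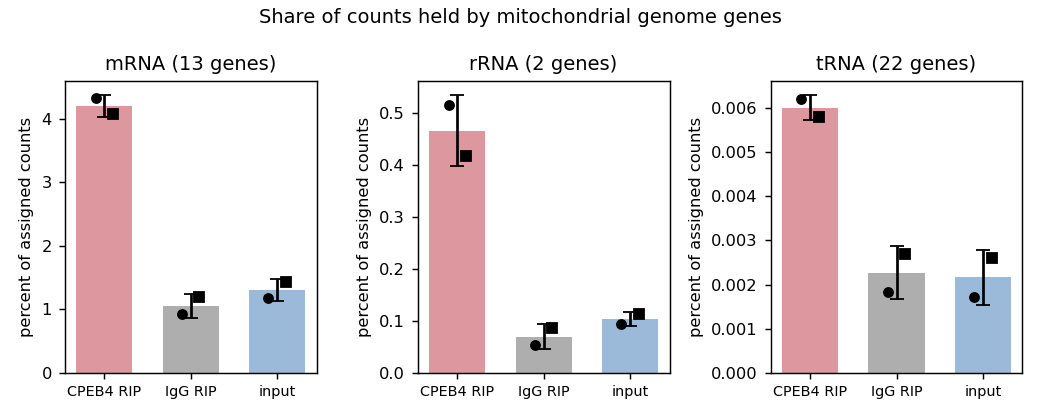
Percent of assigned counts (vertical axes, each from 0) held by mitochondrial mRNAs, rRNAs and tRNAs in CPEB4 RIP, IgG RIP and input. Bars are means, error bars SD over 2 libraries, circles replicate 1 and squares replicate 2; in each class both CPEB4 RIP libraries lie above the other 4.

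For the test of single genes, 24 of the 37 members had enough counts: the 13 mRNAs, both rRNAs and 9 of the 22 tRNAs. The other 13, all tRNAs, had at most 10 counts in any library. CPM below are counts per 1e+06 after TMM scaling, and adjusted p-values are those of edgeR's quasi-likelihood test with Benjamini-Hochberg adjustment over the 18054 genes tested. Against the IgG pulldown 12 members were higher in the CPEB4 pulldown and 0 were lower, while 4.79% of all genes tested were higher and 3.42% lower (8.21% in either direction). The 12 were 9 mRNAs, both rRNAs and 1 tRNA. The calls of mt-Co2, mt-Nd5 and mt-Tp were each lost in 2 of 16 alternative settings. The mRNAs had a median log2 fold change of 2.07, against -0.07 over all genes tested. Without CPEB4 pulldown replicate 2 the count was 0, and no gene of the whole table passed. It was 16 without IgG pulldown replicate 1 and 18 without IgG pulldown replicate 2, where 37% and 35.1% of all genes tested passed.

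Both rRNAs of the mitochondrial ribosome rose. The large subunit rRNA mt-Rnr2 (MT, 1094 to 2675, GRCm38) stood at 5094 and 4332 CPM in the CPEB4 pulldown, at 477 and 864 in the IgG pulldown, and at 794 and 1032 in input. The groups of the CPEB4 pulldown and of either background did not overlap. Its log2 fold change was 2.81 (SE 0.29, adjusted p = 0.00719) over the IgG pulldown and 2.37 (SE 0.28, adjusted p = 0.00372) over input. The small subunit rRNA mt-Rnr1 (MT, 70 to 1024) had fewer counts, at 305 and 236 CPM in the CPEB4 pulldown, 32.9 and 64.8 in the IgG pulldown, and 42.7 and 58.3 in input. The CPEB4 pulldown was again above both backgrounds, and its log2 fold change was 2.46 (SE 0.33, adjusted p = 0.0104) over the IgG pulldown. Without IgG pulldown replicate 2 the values over the IgG pulldown were 3.44 for mt-Rnr2 and 3.17 for mt-Rnr1. Without IgG pulldown replicate 1 they were 2.63 and 2.24.

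Among complex I genes, 4 of 7 rose over the IgG pulldown. mt-Nd1, the subunit next to the quinone site, stood at 5393 and 4938 CPM in the CPEB4 pulldown, 806 and 1028 in the IgG pulldown, and 1106 and 1270 in input. mt-Nd4, a proton-pumping subunit, stood at 3160 and 2793 CPM in the CPEB4 pulldown, 479 and 732 in the IgG pulldown, and 495 and 620 in input. For both genes the CPEB4 pulldown libraries lay far above the 4 others, with log2 fold changes over the IgG pulldown of 2.49 for mt-Nd1 and 2.30 for mt-Nd4. mt-Nd2, a membrane subunit, was at 1415 and 1220 CPM in the CPEB4 pulldown against 306 and 503 in the IgG pulldown and 284 and 352 in input. Its log2 fold change was 1.70 over the IgG pulldown (SE 0.25, adjusted p = 0.0127) and 2.05 over input.

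The single complex III gene, mt-Cytb, held the most counts of any member in each library. Its levels were 21362 and 22767 CPM in the CPEB4 pulldown, 4331 and 6178 in the IgG pulldown, and 6246 and 8333 in input. No library of a background reached those of the CPEB4 pulldown. Its log2 fold change was 2.07 over the IgG pulldown (SE 0.21, adjusted p = 0.00719) and 1.60 over input (SE 0.20, adjusted p = 0.00424).

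All 3 complex IV genes, the catalytic core of cytochrome c oxidase, rose over the IgG pulldown. mt-Co1 stood at 10200.3 and 9002 CPM in the CPEB4 pulldown, 1300.1 and 1957 in the IgG pulldown, and 1534 and 2418 in input. mt-Co3 had far fewer counts, at 83.1 and 104.6 CPM in the CPEB4 pulldown, 10.6 and 18.4 in the IgG pulldown, and 23.8 and 15.2 in input. mt-Co2, which carries the copper site that takes electrons from cytochrome c, was at 56.0 and 71.5 CPM in the CPEB4 pulldown, 8.53 and 17.7 in the IgG pulldown, and 26.5 and 15.3 in input. In each of the 3 genes the CPEB4 pulldown lay above both backgrounds. The log2 fold changes over the IgG pulldown were 2.56 for mt-Co1, 2.69 for mt-Co3 and 2.27 for mt-Co2. With 1 library left out they ranged from 2.47 to 3.02 for mt-Co1, from 2.54 to 3.29 for mt-Co3 and from 2.03 to 3.04 for mt-Co2.

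Of the ATP synthase genes, mt-Atp6, a subunit of the proton channel, rose over the IgG pulldown. It stood at 101 and 135 CPM in the CPEB4 pulldown, 16.4 and 31.9 in the IgG pulldown, and 65.1 and 40.7 in input, so that the IgG pulldown lay below input. Its log2 fold change was 2.28 over the IgG pulldown (SE 0.37, adjusted p = 0.0152). That value was 2.07 without IgG pulldown replicate 1 and 2.99 without replicate 2. Over input it was 1.16, which did not pass (SE 0.35, adjusted p = 0.0725). The small subunit gene mt-Atp8 had log2 values of 1.30 over the IgG pulldown and 0.86 over input, and neither passed (adjusted p = 0.129 and 0.267). mt-Atp8 passed over the IgG pulldown in 4 of 16 alternatives (lowest adjusted p = 0.00396) and over input in 2 of 16 (lowest 0.0207), among them the settings that left out 1 IgG library each. mt-Atp6 passed over input in 5 of 16.

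The remaining mRNAs that did not pass over the IgG pulldown were 3 complex I genes. mt-Nd3 and mt-Nd4l had few counts, at 8 to 32 and 7 to 59 per library. Their log2 values were 0.75 (SE 0.73) and 1.54 (SE 0.69), so their errors were wide. With 1 library left out they ranged from 0.52 to 1.43 for mt-Nd3 and from 1.40 to 2.13 for mt-Nd4l. mt-Nd4l passed in 3 of 16 alternatives (lowest adjusted p = 0.0207) and mt-Nd3 in 0 of 16. The third, mt-Nd6, was abundant and is described next with mt-Nd5.

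**Figure D2:**
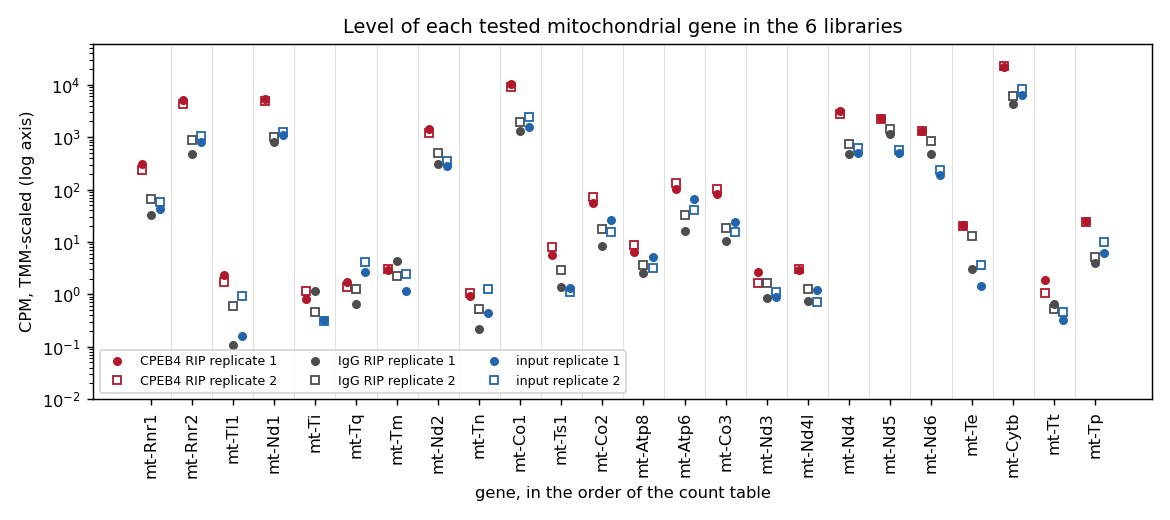
Level of each of the 24 tested mitochondrial genes (CPM after TMM scaling, log axis) in the 6 libraries, in the order of the count table. Red symbols of CPEB4 RIP lie above grey (IgG RIP) and blue (input) for the mRNAs and rRNAs, with the exception of mt-Nd3, where an IgG RIP library exceeds a CPEB4 RIP library.

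mt-Nd5 and mt-Nd6 had another pattern: the IgG pulldown held more of them than input did. mt-Nd5, a proton-pumping subunit of complex I, stood at 2335 and 2237 CPM in the CPEB4 pulldown, 1124 and 1438 in the IgG pulldown, and 508 and 571 in input. mt-Nd6, a membrane subunit of complex I and the sole mRNA of the genome encoded on the light strand, stood at 1291 and 1314 CPM in the CPEB4 pulldown, 478 and 839 in the IgG pulldown, and 188 and 233 in input. The 3 groups were ordered in the same way for both genes, with no overlap between any groups.

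Over the IgG pulldown the log2 fold change of mt-Nd5 was 0.84 (SE 0.16, adjusted p = 0.0228), the smallest among the 12 members that passed. That of mt-Nd6 was 0.98 (SE 0.25, adjusted p = 0.0574) and did not pass. Without IgG pulldown replicate 2 mt-Nd6 stood at 1.58 and without IgG pulldown replicate 1 at 0.81. It passed in 10 of 16 alternatives and did not in 6. Those that passed included the DESeq2 Wald test (adjusted p = 3.43e-04) and the replicate block (adjusted p = 0.0142). Over input the same genes had 2.08 (SE 0.16, adjusted p = 0.00184) and 2.63 (SE 0.27, adjusted p = 0.00251). CPEB4 pulldown libraries enter both comparisons, so these values are not independent.

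Shares within the mitochondrial counts need no scaling to other genes. mt-Nd5 took 11.2% ± 1.04 of the mitochondrial counts in the IgG pulldown, but 4.57% ± 0.032 in the CPEB4 pulldown and 4.15% ± 0.48 in input (SD, n = 2 each). mt-Nd6 took 5.09% and 6.12% in the IgG pulldown, 2.54% and 2.67% in the CPEB4 pulldown, and 1.66% and 1.56% in input. In the IgG pulldown both genes thus had a larger part of the mitochondrial counts than in any other library. mt-Cytb took 42.0% and 46.2% in the CPEB4 pulldown, 46.1% and 45.1% in the IgG pulldown, and 55.1% and 55.6% in input. mt-Rnr2 took 9.41% ± 0.86 in the CPEB4 pulldown, 5.69% ± 0.86 in the IgG pulldown and 6.95% ± 0.087 in input (SD, n = 2 each), and so was highest in the CPEB4 pulldown. mt-Co1 was also highest there, at 19.2% ± 1.25 against 14.1% ± 0.31 in the IgG pulldown and 14.8% ± 1.84 in input (SD, n = 2 each). These shares were not tested.

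**Figure D3:**
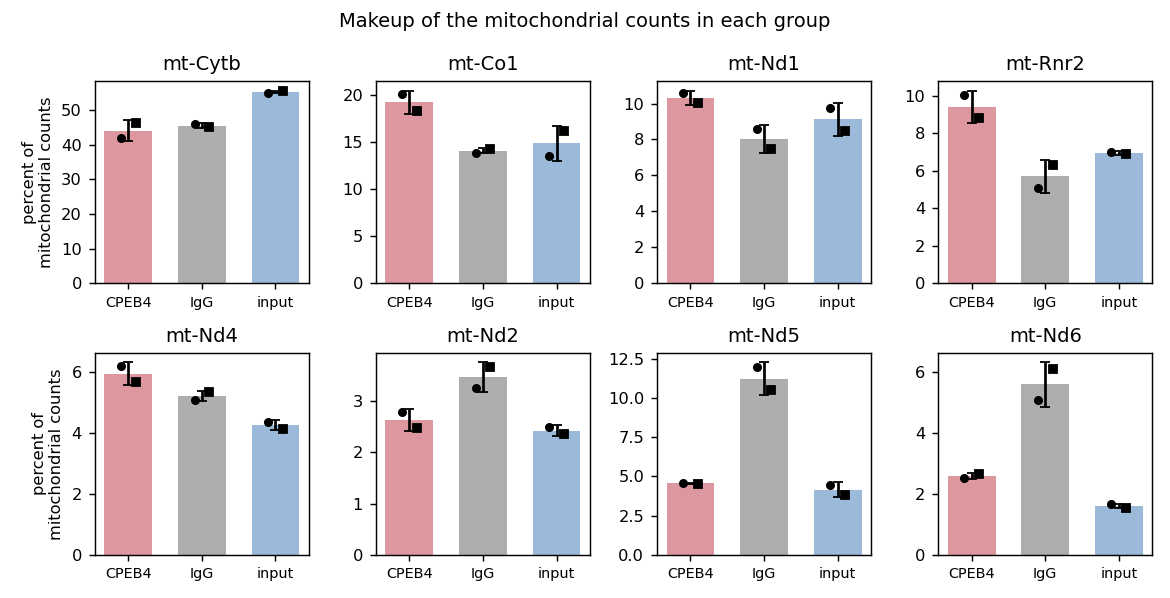
Percent of all mitochondrial counts (vertical axes, each from 0) taken by 8 abundant members in CPEB4 RIP, IgG RIP and input. Bars are means, error bars SD over 2 libraries, circles replicate 1 and squares replicate 2; mt-Nd5 and mt-Nd6 stand out in IgG RIP, at 11.2% and 5.61% on average.

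Between the IgG pulldown and input no member passed edgeR's quasi-likelihood test, nor did any gene of the whole table (0%). The DESeq2 Wald test called 2 members higher and 1 lower, of 14 members with an adjusted p there. Of all genes with an adjusted p in that test 7.87% passed. At an unadjusted p under 0.05 in edgeR's test there were 3 members higher in the IgG pulldown and 5 lower. The share of all genes under that unadjusted p was not computed. These counts therefore cannot be set against the rate of all genes. The 3 higher were mt-Nd5 at 1.25 (SE 0.16, adjusted p = 0.109), mt-Nd6 at 1.64 (SE 0.26, adjusted p = 0.155) and the tRNA mt-Te at 1.69 (SE 0.69, adjusted p = 0.337). In the order of the count table these 3 genes are neighbours. Without IgG pulldown replicate 1 mt-Nd5 had an adjusted p of 2.04e-07 and mt-Nd6 of 1.31e-11; without IgG pulldown replicate 2 these were 3.70e-04 and 8.49e-05. With those libraries left out 32% and 8.23% of all genes tested passed. Over all alternatives the adjusted p ranged from 1.62e-12 to 0.556 for mt-Nd5 and from 1.81e-13 to 0.633 for mt-Nd6. mt-Te rested on IgG pulldown replicate 2, without which its log2 value was 0.22. The members lower at that unadjusted p were mt-Nd1, mt-Cytb, mt-Atp6 and the tRNAs mt-Tq and mt-Tp, with log2 values of -0.37 to -1.79. Other calls also depended on the IgG libraries: 2 members were lower without replicate 1 of the IgG pulldown, mt-Atp6 (adjusted p = 0.00437) and mt-Tq, and 4 were higher, mt-Nd2, mt-Nd5, mt-Nd6 and mt-Te. Without replicate 2 there were 9 lower and 2 higher. The 9 were both rRNAs, mt-Nd1, mt-Co1, mt-Co2, mt-Co3, mt-Atp6, mt-Cytb and mt-Tq, with mt-Atp6 at -1.77 (adjusted p = 8.30e-06), mt-Rnr2 at -1.01 (adjusted p = 0.00105), mt-Cytb at -0.82 (adjusted p = 0.00672), and mt-Nd1 and mt-Co1 at adjusted p of 0.0352 and 0.0348. The 2 higher were mt-Nd5 and mt-Nd6. mt-Nd5 and mt-Nd6 lie end to end on opposite strands. The strand setting of the counting was not given in the sources used here. Reads of a gene and of RNA from the opposite strand therefore cannot be told apart.

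Over input 14 members were higher in the CPEB4 pulldown and 0 lower, where 8% of all genes tested were higher and 4.7% lower (12.7% in either direction). They were 9 mRNAs, both rRNAs and the tRNAs mt-Ts1, mt-Te and mt-Tp. The call of mt-Co2 (adjusted p = 0.0364) was lost in 6 of 16 alternatives. Those of mt-Ts1, mt-Te and mt-Tp were lost in 4 of 16 each. Median log2 fold change of the mRNAs was 2.05, against -0.06 over all genes tested. Without CPEB4 pulldown replicate 2 the count was 8, with 0.541% of all genes tested. Both comparisons share the CPEB4 pulldown libraries.

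**Figure D4:**
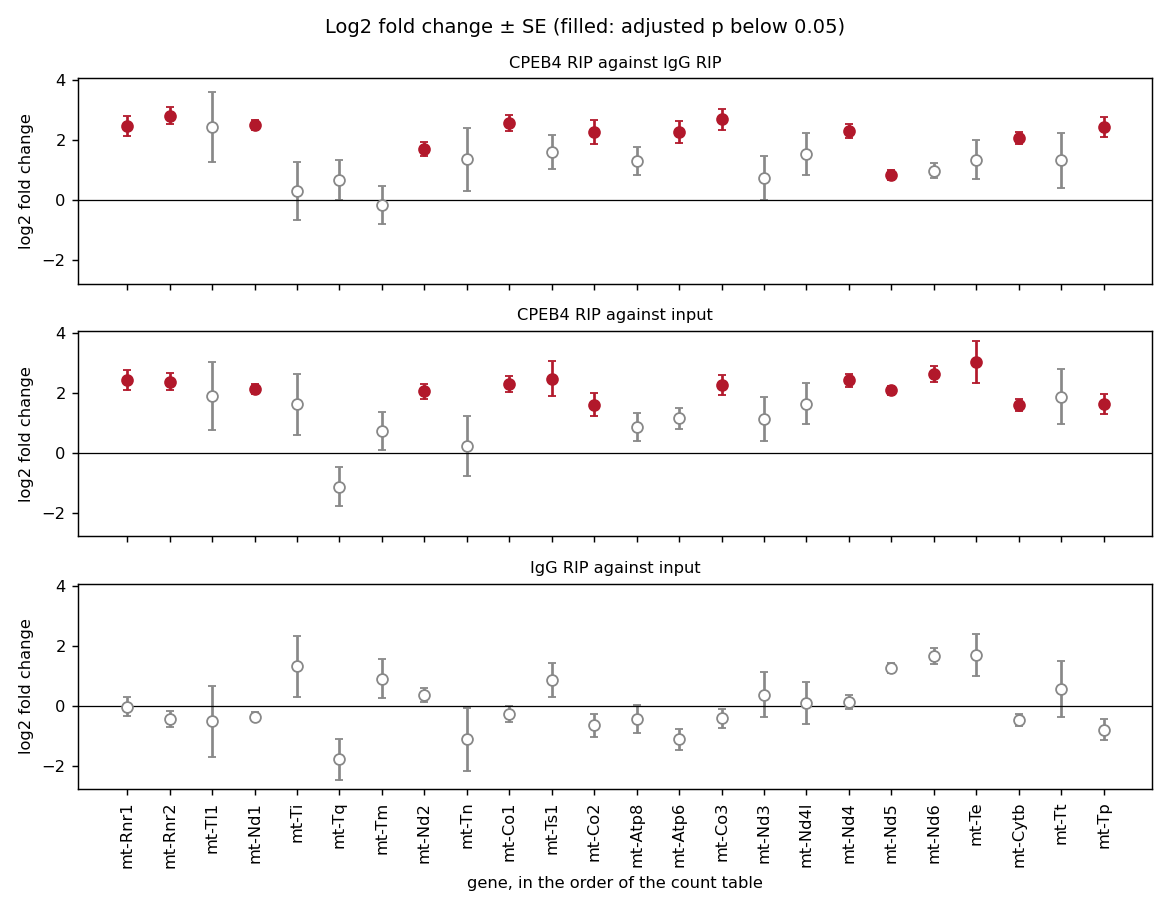
Log2 fold change (vertical axis) with SE of the 24 tested mitochondrial genes in the 3 comparisons, in the order of the count table; filled red points had an adjusted p under 0.05 (edgeR). The upper panel has 12 filled points, the middle panel 14 and the lower panel 0, and mt-Nd5, mt-Nd6 and mt-Te stand above the line in the lower panel.

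The tRNAs, which deliver amino acids to the ribosomes of the organelle, had 166 to 1210 counts in all per library. Most came from a few of them. mt-Tp, the proline tRNA, stood at 24.7 and 24.2 CPM in the CPEB4 pulldown, 3.95 and 5.06 in the IgG pulldown, and 6.09 and 9.76 in input. It rose over the IgG pulldown, at 2.43 on the log2 scale (SE 0.35, adjusted p = 0.0118). mt-Te, the glutamate tRNA, stood at 21.3 and 19.7 CPM in the CPEB4 pulldown, 2.99 and 12.9 in the IgG pulldown, and 1.47 and 3.59 in input. It rose over input, at 3.04 (SE 0.71, adjusted p = 0.0317). Over the IgG pulldown it had 1.35 (adjusted p = 0.233), or 0.84 without IgG pulldown replicate 1 and 2.91 without replicate 2. Without input replicate 2 the value of mt-Te over input was 3.81 and did not pass, and over all alternatives its adjusted p there reached 0.198. mt-Ts1, a serine tRNA, was at 5.55 and 7.83 CPM in the CPEB4 pulldown, 1.39 and 2.95 in the IgG pulldown, and 1.31 and 1.09 in input, and it rose over input at 2.47 (SE 0.59, adjusted p = 0.0335), a call lost in 4 of 16 alternatives. Over the IgG pulldown mt-Ts1 passed in 4 of 16 alternatives but not in the main test (1.61, adjusted p = 0.122).

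Some tRNAs went against the general direction, and none of these passed the main test. mt-Tq, the glutamine tRNA, stood at 2.66 and 4.14 CPM in input, above the CPEB4 pulldown (1.74 and 1.37) and the IgG pulldown (0.640 and 1.28). Its log2 value over input was -1.13 (adjusted p = 0.307), and it passed in 1 of 16 alternatives, with only the 4 libraries compared (adjusted p = 0.0459). In that setting 43.3% of all genes tested passed. mt-Tm, the methionine tRNA, was at 4.37 and 2.27 CPM in the IgG pulldown and 2.90 and 2.99 in the CPEB4 pulldown, and these groups overlapped. mt-Tt passed the filter through the CPEB4 pulldown libraries alone. Outside the CPEB4 pulldown mt-Tl1, mt-Tn and mt-Ti each had only 1 library above the filter's minimum, and the filter asked for 2. The values of these tRNAs in the CPEB4 pulldown are therefore in part a condition of being tested. mt-Tt, mt-Tl1, mt-Tn and mt-Ti had at most 33 counts in any library, and their SE were 0.91 to 1.16 over the IgG pulldown. The tRNAs mt-Td and mt-Tk had 0 counts in every library, which allows up to 3 counts per library, or 0.158 to 0.320 CPM, counting error only.

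Levels of different genes were compared by FPKM, which are scaled by gene length. In the CPEB4 pulldown the order began with mt-Cytb at 13884 ± 356 FPKM, mt-Co1 at 4479 ± 482, mt-Nd1 at 3889 ± 318 and mt-Nd6 at 1807 ± 12.3 among the mRNAs (SD, n = 2). mt-Co1 and mt-Nd1 were separated by less than their SDs added. mt-Rnr2 stood at 2148 ± 287 FPKM and mt-Rnr1 at 204 ± 40.7. In the IgG pulldown mt-Nd6, at 865 ± 364 FPKM, came after mt-Cytb alone (3122 ± 887), but mt-Co1 (717 ± 230) and mt-Nd1 (650.2 ± 135) lay within its spread. In input mt-Nd6 was at 291 ± 40.2 FPKM, near mt-Nd4 at 290 ± 42.2.

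A step in level followed the order of the genes along the genome. The 10 neighbouring genes from mt-Td to mt-Nd4l, which were singled out once the values were known, include 6 mRNAs. Those 6 had mean FPKM of 4.44 to 125 in the CPEB4 pulldown, whereas the 7 mRNAs on either side had 903 to 13884. In the IgG pulldown the ranges were 2.33 to 24.2 and 265 to 3122, and in input 2.02 to 55.8 and 212 to 4565. The ranges did not overlap in any group, and the step was present in all 3 groups. mt-Co1 and mt-Co2, which are separated by the tRNA genes mt-Ts1 and mt-Td and encode subunits of the same enzyme, thus stood at 4479 ± 482 and 67.0 ± 10.2 FPKM in the CPEB4 pulldown (SD, n = 2).

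**Figure D5:**
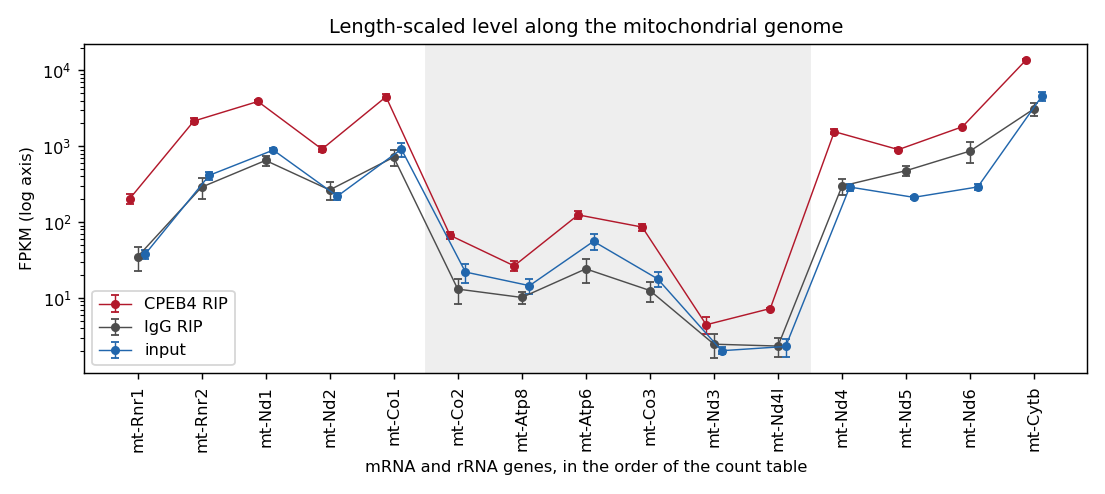
Mean FPKM (log axis) of the mitochondrial mRNAs and rRNAs in the order of the count table, with bars from the lower to the higher library of each group. The shaded genes, mt-Co2 to mt-Nd4l, lie below the mRNAs on either side in CPEB4 RIP, IgG RIP and input alike.

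Nuclear copies of mitochondrial sequence were counted beside the members. The mouse nuclear genome holds inserted copies of parts of the mitochondrial genome, some nearly identical to it. RefSeq gives mt-Atp6 as a synonym of Gm10925, a pseudogene on chromosome 1 from 24613971 to 24614651 (GRCm38), and places the pseudogene Gm10222 nearby at 24612404 to 24612700. Gm10925, 681 bases long, had more counts than mt-Atp6 in all 6 libraries: the ratio of mt-Atp6 to Gm10925 counts was 0.683 and 0.734 in the CPEB4 pulldown, 0.726 and 0.716 in the IgG pulldown, and 0.789 and 0.766 in input. The ratio of this pair thus varied little while both features moved between groups. For mt-Co3 over the copy Gm29216 it was 0.260 and 0.281 in the CPEB4 pulldown and 0.252 and 0.228 in the IgG pulldown. In input that ratio was higher, at 0.337 and 0.309. Of 9 listed copies 7 were higher in the CPEB4 pulldown than in the IgG pulldown and 0 were lower, among them Gm28437 at 2.95 (SE 0.37) and Gm10925 at 2.30 (SE 0.35). Over input 7 of the 9 were higher. Among all genes tested 4.79% were higher and 3.42% lower over the IgG pulldown, and 8% and 4.7% over input. Together the copies held 0.0953% ± 0.0079 of the counts in the CPEB4 pulldown and 0.0196% ± 0.0078 in the IgG pulldown (SD, n = 2 each). The handling of reads with more than 1 match was not given in the sources used here. Levels of single members in the low stretch are therefore uncertain, and the part of the copies in the step was not tested. With the copies added, the share of counts in the CPEB4 pulldown was 4.16 times that of the IgG pulldown.

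The messages of nuclear genes for the same complexes had lower medians over the IgG pulldown, in each complex. Of 73 nuclear subunits tested 32 were higher in the CPEB4 pulldown than in the IgG pulldown and 4 were lower. Their median log2 fold change was 0.72. Among all genes tested 4.79% were higher and 3.42% lower in that comparison. In complex IV the median was 0.87 over 13 nuclear genes, of which 7 rose, against 2.56 over the 3 mitochondrial genes. In complex I it was 0.69 over 36 nuclear genes, of which 16 rose and 2 fell, against 1.54 over the 7 mitochondrial genes. In complex V it was 0.67 over 15 nuclear genes, with 6 higher and 1 lower, against 1.79 over the 2 mitochondrial genes. In complex III it was 0.61 over 9 nuclear genes, with 3 higher and 1 lower, against 2.07 for mt-Cytb. Over input 48 of the 73 nuclear genes were higher and 2 lower, where 8% of all genes tested were higher and 4.7% lower. The medians over input were 0.84 for nuclear against 2.08 for mitochondrial genes in complex I, 1.01 against 1.60 in complex III and 1.09 against 2.26 in complex IV. In complex V they were close, at 0.89 with 10 of 15 nuclear genes higher and 1.01 with 0 of 2 mitochondrial genes higher. The difference between the sets was not tested. By log2 fold change over the IgG pulldown, the accessory complex I subunits Ndufa1 (1.42) and Ndufb9 (1.45) and the complex IV subunit Cox8a (1.30) had the smallest p of those that rose. Those that fell with the smallest p were the complex I core subunits Ndufs1 (-1.16) and Ndufv1 (-0.62) and the complex III core protein Uqcrc1 (-0.61).

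Nuclear genes that make and process mitochondrial RNA passed the test at a rate near that of all genes (8.21% over the IgG pulldown and 12.7% over input). Of 36 listed, 35 were tested, of which 1 was higher in the CPEB4 pulldown than in the IgG pulldown and 1 lower, with a median log2 value of -0.07. The oligoribonuclease Rexo2, which degrades short RNAs, stood at 175 ± 16.4 CPM in the CPEB4 pulldown and 88.5 ± 3.58 in the IgG pulldown (SD, n = 2 each) and rose by 0.99 on the log2 scale (SE 0.16, adjusted p = 0.0150). Nsun4, a methyltransferase of the mitochondrial rRNA, fell from 49.5 ± 4.81 to 22.9 ± 1.57 CPM (SD, n = 2 each), at -1.11 (SE 0.19, adjusted p = 0.0183). Over input 1 was higher and 3 were lower, again Rexo2 (0.90) and Nsun4 (-1.09), with Fastkd2 (-1.33) and Mrm3 (-0.79), which act on the large subunit rRNA.

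Markers of other cell types were measured for the same libraries. Of all genes tested 4.79% were higher and 3.42% lower over the IgG pulldown, and 8% and 4.7% over input. Erythroid markers summed to 658 and 328 CPM in the CPEB4 pulldown, 88.0 to 147 in the IgG pulldown and 109 to 179 in input. Over the IgG pulldown 3 of 5 tested were higher. All 5 had a positive log2 value there, with a median of 2.06. Myofibre markers are of a cell type rich in mitochondria. They summed to 399 and 330.2 CPM in the CPEB4 pulldown, 213 to 244 in the IgG pulldown and 220.2 to 284 in input. Over the IgG pulldown 3 of 11 were higher and 9 had a positive log2 value (median 0.54). Fibro-adipogenic markers summed to 1700.3 and 1377 CPM in the CPEB4 pulldown, 800.2 to 1109 in the IgG pulldown and 581 to 754 in input. Over the IgG pulldown 2 of 6 were higher and all 6 had a positive log2 value (median 0.79). Endothelial markers summed to 472 and 316 CPM in the CPEB4 pulldown, 217 to 320.0 in the IgG pulldown and 212 to 237 in input. The 2 pulldowns thus overlapped. Over the IgG pulldown 1 of 5 was higher and 3 had a positive log2 value (median 0.36). Leukocyte markers summed to 64.4 and 86.6 CPM in the CPEB4 pulldown, 39.7 to 54.5 in the IgG pulldown and 35.3 to 42.3 in input, with 1 of 8 higher. These did not move together: 4 of the 8 had a positive log2 value over the IgG pulldown. The median was 0.17, and the values ran from -3.81 to 2.54. Muscle stem cell markers summed to 63665 and 69583 CPM in the CPEB4 pulldown, 61892 to 63285 in the IgG pulldown and 47277 to 48488 in input, so that both pulldowns lay above input. Of these 12 markers 1 was higher and 1 lower over the IgG pulldown, and 2 were higher and 3 lower over input. In each library at most 1 marker of a list was at 0. The part of these cells in the mitochondrial result was not tested.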

How the data were processed

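RNA was measured in 6 libraries, in pairs from the CPEB4 pulldown, the IgG pulldown and input. Values deposited for the test are raw, whole-number counts of each gene. Per the submitters' processing notes, HISAT2, featureCounts and mm10 were used; versions, annotation, use of strand and multiple matches: not given in the sources used here. Deposited FPKM were scaled by gene length and a library total by the authors.

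Counts were fitted in R 4.3.3 with edgeR 4.0.16 (filterByExpr, minimum count 10 and total 15; TMM; quasi-likelihood, group as only term, all 6 libraries, 3 residual degrees of freedom), two-sided at an adjusted p of 0.05. SE is the absolute log2 fold change over the square root of F. The steps were tested on simulated data. RefSeq (GRCm38.p6) matched 2 of 37 members and 2 of 9 nuclear copies.

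Members and lists were chosen with earlier results of these data known. Each tested member was to be described, and of the nuclear lists up to 3 genes each way with the smallest p. Alternatives were DESeq2 1.42.0 size factors and Wald test, library size, scaling without the members, filters, the 4 libraries compared, a replicate term, limma 3.58.1 on log2(FPKM + 1) and with 0.1, and each library left out. PCR reads without molecular identifiers are not independent molecules.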

Additional observations from a re-analysis of the deposited data

How the results depend on the processing

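With only 2 libraries per group, the calls rested on single libraries. Leaving out each library in turn, with the lone sample of its group assumed to vary like the others, gave 0 to 18 members past the test for the CPEB4 pulldown against the IgG pulldown, 8 to 19 for the CPEB4 pulldown against input and 0 to 11 for the IgG pulldown against input. The lowest counts of the first 2 came without CPEB4 pulldown replicate 2, and the 11 (2 higher, 9 lower) without IgG pulldown replicate 2; the cause was not tested. In each comparison the share of all genes tested that passed also rose above the main test when an IgG pulldown library was left out. In the first 2 it was lowest without CPEB4 pulldown replicate 2. The range of these member counts therefore does not show a change specific to mitochondrial genes. For the IgG pulldown against input the count of 0 became 4 without a low-count filter, 3 with the DESeq2 Wald test and 2 with the replicate block. Of all genes tested 0.998%, 7.87% and 0.138% passed in these settings. The replicate numbers are not stated to pair the samples: deviations of same-numbered libraries correlated at 0.13, -0.02 and 0.07 between groups. With the replicate block 13 members passed against the IgG pulldown (12 without it) and 14 against input (14 without it). Of all genes tested 10.2% and 14.5% passed with it. The other alternatives gave 12 to 15 members against the IgG pulldown, with 5.3% to 15.8% of all genes tested. Against input they gave 13 to 19, with 6.4% to 43.3%. The 19, with only the 4 libraries compared, were 18 higher and 1 lower (mt-Tq). In that setting 43.3% of all genes tested passed, against 12.7% in the main test. The share of counts in the CPEB4 pulldown over the IgG pulldown was 3.39 to 4.78 under all alternatives run.

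Direction turned in 18 of 1122 single log2 values, all of members that had not passed. With library size alone as the scaling, IgG over input turned to -0.070 for mt-Nd4l and -0.023 for mt-Nd4, and without a filter to 0.00079 for mt-Rnr1. The other turns came from leaving out a library. Over those, the log2 value of the CPEB4 over the IgG pulldown ranged from -0.083 to 1.31 for mt-Ti and from -0.43 to 0.56 for mt-Tm. That of the CPEB4 pulldown over input ranged from -0.33 to 1.18 for mt-Tn. That of the IgG pulldown over input ranged from -0.68 to 0.24 for mt-Rnr1, from -2.24 to 0.98 for mt-Tl1, from -0.13 to 0.54 for mt-Nd2, from -0.26 to 0.64 for mt-Nd3, from -0.45 to 0.41 for mt-Nd4l and from -0.29 to 0.27 for mt-Nd4. The cause was not tested. Low counts limited mainly the tRNAs, mt-Nd3, mt-Nd4l and mt-Atp8.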

Other observations

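The 2 rRNAs come from the same precursor, yet their length-scaled levels differed and their ratio varied between groups. The FPKM of mt-Rnr2 over mt-Rnr1 was 10.1 and 11.1 in the CPEB4 pulldown libraries, 8.75 and 8.05 in the IgG pulldown, and 11.2 and 10.7 in input, with the IgG pulldown below the other 4. The FPKM of mt-Nd6 over mt-Cytb, with the gene of mt-Te between them, was 0.133 and 0.127 in the CPEB4 pulldown, 0.243 and 0.299 in the IgG pulldown, and 0.0664 and 0.0617 in input, so that each pair of groups was apart. The FPKM of mt-Nd5 over mt-Nd4, which precedes it, was 0.558 and 0.605 in the CPEB4 pulldown, 1.77 and 1.48 in the IgG pulldown, and 0.775 and 0.696 in input. Together mt-Te and mt-Tp made up 70.4% and 69.1% of all tRNA counts in the CPEB4 pulldown, 39.2% and 62.0% in the IgG pulldown, and 49.5% and 52.8% in input. These ratios were chosen after the values were seen and were not tested.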
